A study of Mus musculus with 12 samples.

Results

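MC3T3-E1 cells are an osteoblast-like mouse line that was cloned from calvaria, the bone of the skull vault. The 6 samples of them that were kept without flow are described here on their own, as a picture of which genes gave strong and weak signal in the resting culture. They are 6 of the 12 samples of the series. The other 6 came from cells under pulsatile flow and enter no comparison below. Per the labels' protocols, cells grew in alpha-MEM with 5% fetal bovine serum and formed confluent monolayers on glass slides. The controls stayed static in the same set-up as the flow samples, whose medium held 1% serum, and 50 ug of total RNA per sample was labelled. No treatment, transgene or deletion is named for them, and all come from this line alone. The labels do not state whether separate cultures stand behind the 6 samples, so the variation that the p-values rest on may be technical.

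Control samples 1, 3 and 5 carried the dye Cy5 and samples 2, 4 and 6 carried Cy3. The series text names a hybridisation design in which samples of the same condition share an array. From this and the dyes, samples 1 and 2 were taken to share array 1, samples 3 and 4 array 2, and samples 5 and 6 array 3. Of 28704 spotted features, 18434 (control 4) to 23790 (control 1) had a value in a control sample, and the median net fluorescence ran from 293 to 567. Control 4 and control 3 had the fewest values, 64.2% and 72.9% of the features. A feature was kept where it had a value in all 6 samples (17813 features) and the annotation gave it exactly 1 gene symbol. A gene with several such probes was represented by the probe with the highest mean. This left 7971 of 10225 genes on the array (78.0%), ranked by mean log2 signal relative to the median of the block of spots that the feature lies in. A value of 0 is thus the block median, and each unit is a doubling of fluorescence. Spot signal depends on the probe as well as on the transcript, so the rank of a gene is the rank of its brightest spot and not of its RNA level.

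Osteoblasts build bone by secreting a matrix of type I collagen and other proteins and then mineralising it. Collagen chains are hydroxylated, folded and escorted through the endoplasmic reticulum, trimmed outside the cell and cross-linked. Small proteoglycans and glycoproteins bind the fibrils, and alkaline phosphatase at the cell surface frees phosphate for mineral. MC3T3-E1 cells are used as preosteoblasts that can go through these stages in culture. Dividing, secreting cells also carry much RNA for ribosomal proteins, which many of these genes mark with a pyrimidine run at the very start of the transcript, the 5′ TOP motif.

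The start regions below are shown because ribosomal protein genes filled more of the top of the ranking than any other list examined. Each line holds 25 bases before and 25 bases from the annotated start in RefSeq (build GRCm38.p6), 5′ to 3′, with the first 5 transcribed bases in capitals. The 4 genes listed first begin with C and 4 pyrimidines, while Rps4x and Rpsa do not.
Rps18, chr17:33955641-33955690, minus strand: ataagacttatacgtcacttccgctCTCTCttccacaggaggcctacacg
Rpl14, chr9:120571492-120571541, plus strand: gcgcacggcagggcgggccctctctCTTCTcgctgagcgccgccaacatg
Rpl15, chr14:18270962-18271011, minus strand: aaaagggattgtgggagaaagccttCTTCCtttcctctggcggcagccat
Rpl38, chr11:114668555-114668604, plus strand: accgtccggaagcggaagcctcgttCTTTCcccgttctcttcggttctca
Rps4x, chrX:102189367-102189416, minus strand: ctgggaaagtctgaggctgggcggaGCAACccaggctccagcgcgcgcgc
Rpsa, chr9:120127741-120127790, plus strand: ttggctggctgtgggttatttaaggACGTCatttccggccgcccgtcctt
All 6 had mean signals in the top 10% of the ranking: 5.20 for Rps18, 5.00 for Rpl14, 4.76 for Rpl15, 4.09 for Rpl38, 5.57 for Rps4x and 5.72 for Rpsa. The pattern, C followed by 4 letters that are each C or T at the annotated start of the coding strand, was searched in all promoters of the table. It stood in 12 of 47 ribosomal protein genes with a promoter entry (25.5%), in 155 of 6361 ranked genes (2.44%) and in 673 of 27025 genes of the table (2.49%). Of the 12 ribosomal genes, 11 were in the top 10% of the ranking, where 50 of all 62 ranked ribosomal genes (80.6%) stood. Only 47 of the 62 ranked ribosomal genes (75.8%) and 79.8% of all ranked genes had an entry, so a check of this property over the sets is void and the shares describe the matched genes only. A match is a stretch of letters at an annotated start. RefSeq starts can be off by a few bases, and a gene without a match here may still begin this way in these cells.

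Mean log2 signal over the 7971 genes ran from 6.42 for P4ha1 to -2.99 for A730056A06Rik, with a median of 0.64 and quartiles at -0.30 and 1.55. The top 10% and the bottom 10%, with 797 genes each, began at 2.40 and -1.03. These thresholds lie 10.8-fold apart in fluorescence. The last gene inside the top 10% was Ccdc80 at 2.401 and the first outside it was Ap3m1 at 2.400. At the other end Copz2 at -1.032 was the first inside the bottom 10% and 4732416N19Rik at -1.031 the last outside it, so membership near either threshold separates genes with nearly equal means. The median SD of a gene over the 6 samples was 0.36. Of the top 797 genes, 484 (60.7%) were in the top 10% of every sample and 559 (70.1%) in that of every array. Of the bottom 797 genes, 313 (39.3%) were in the bottom 10% of every sample and 425 (53.3%) in that of every array.

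**Figure D1:**
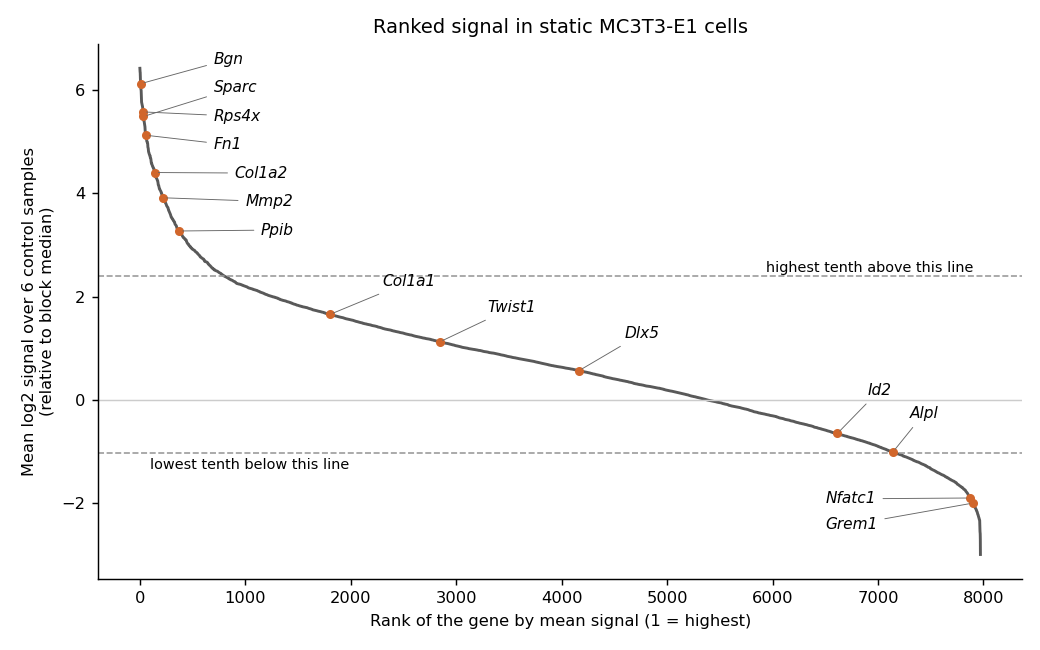
Mean log2 signal of each of 7971 genes (vertical axis, relative to the block median) against its rank (horizontal axis), over the 6 static control samples. Dashed lines mark the top 10% (from 2.40 up) and the bottom 10% (from -1.03 down), and orange points mark named genes, from Bgn at 6.12 to Grem1 at -1.99.

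Among the 20 genes with the highest means were genes of matrix assembly, of growth and of the ribosome beside several whose probes need caution. P4ha1, the catalytic subunit of prolyl 4-hydroxylase that hydroxylates collagen, headed the ranking at 6.42 ± 0.43 (SD, n = 6), with samples from 5.67 through a median of 6.43 to 6.88. Its second probe gave 3.01, also above 2.40 but far below the first. Biglycan (Bgn), a small proteoglycan of bone, stood ninth at 6.12 ± 0.37, and Tpt1, a growth-related calcium-binding protein, at 5.76 ± 0.23. Hmga2, a chromatin architectural protein, had 6.37 ± 0.42, and Utp20, which takes part in ribosomal RNA processing, 5.92 ± 0.63. Rpsa, a protein of the small ribosomal subunit, had 5.72 ± 0.25. The rest were Tsc22d1, Zfp790, Hoxa7, Ak4, Sap30bp, Olfml2b, 2500002B13Rik, Tspyl2, Bod1, Tnnt2, Proc, Ttc3, Ddx1 and Pip4p1, between 6.34 and 5.74. All 20 were in the top 10% of all 6 samples, and their values in single samples ran from 4.70 (Utp20 in control 4) to 7.39 (Bod1 in control 3). As the 20 were picked by the mean of these same values, their place in each sample follows largely from the choice.

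The 10 genes with the lowest means were Shfl, Hmg20b, Dennd6b, Snai1, Ssbp2, Tulp2, Pgf, Col6a6, Phyh and A730056A06Rik, from -2.32 down to -2.99. Snai1, a repressor of epithelial genes, had samples from -2.95 to -1.52. Pgf, the placental growth factor ligand, lay between -3.78 and -1.77, and Col6a6, a chain of collagen VI, between -3.31 and -2.0. None of these 10 genes had a sample above the threshold of the top 10%, and each sample of each of them was below its block median. These genes were picked for their low means, so this follows largely from the choice. They are the lowest of the genes that passed the filter only, since 2254 genes on the array lacked a value in at least 1 control sample on every probe.

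Probes of many matrix genes stood high in the ranking. Of 6 fibrillar collagen chains measured, 3 were in the top 10% and none in the bottom 10%, against 10% of all ranked genes in each. Their median was 2.63, against 0.64 for all genes. Col3a1, the chain of type III collagen, gave 5.68 ± 0.29, from 5.31 through 5.65 to 6.02. The samples of that probe lay close together inside the top 10%. Its other 3 probes gave 4.65 ± 0.69, 3.62 ± 1.26 and 0.51 ± 1.30, the last below the median of all genes. Col1a2, the second chain of type I collagen, gave 4.40 ± 1.10, from 3.01 through 4.50 to 5.60. Col1a1, the main chain of type I collagen, gave 1.65 ± 0.89, from -0.04 in control 4 through 1.89 to 2.62. A second Col1a2 probe gave 0.71, so the order of these partner chains depends on the probe. Col5a3 gave 3.48 ± 0.32, Col5a2 1.77 ± 0.38 and Col27a1 0.31 ± 0.60.

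Other collagens were spread over the whole range. Of 9 measured genes, 4 were in the top 10% and 3 in the bottom 10%, with a median of 1.15. The collagen VI chains Col6a3 and Col6a1, which form beaded filaments around cells, gave 4.29 ± 0.36 and 4.05 ± 0.56, and Col4a1 of basement membranes gave 3.51 ± 0.56. Its partner Col4a2 gave -1.27 ± 1.46 and lay between -2.31 and -1.35 in 5 samples but at 1.59 in control 4. Col15a1 had no value in any control sample. Among 20 genes of collagen processing, 4 were in the top 10% and 2 in the bottom 10%, and the median was 1.48. After P4ha1 came Serpinh1, the collagen chaperone, at 4.50 ± 0.37 (from 3.94 through 4.47 to 4.99), and its second probe gave 3.65. Pcolce, which enhances removal of the collagen propeptide, gave 4.36 ± 0.23, and Ppib, a prolyl isomerase of the endoplasmic reticulum, 3.27 ± 0.40. P3h1, a prolyl 3-hydroxylase, at -1.26 ± 0.36 and Adamts14, a propeptidase, at -1.57 ± 0.49 were at the low end.

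Of 14 non-collagen proteins of the bone matrix measured, 13 were above the median of all genes, 7 were in the top 10% and none in the bottom 10%. Their median was 2.59. Sparc, the collagen-binding glycoprotein osteonectin, gave 5.48 ± 0.53, from 4.78 through 5.42 to 6.35. A second Sparc probe gave 5.08 and the last of its 3 probes had no value in any control sample. Biglycan ran from 5.53 through 6.15 to 6.54, and its other probes gave 5.11 and 4.58. All 3 Bgn probes and the 2 Sparc probes with values thus lay above 2.40. Fibronectin (Fn1), an adhesive glycoprotein, gave 5.12 ± 0.95, from 4.25 through 4.88 to 6.62. Decorin (Dcn) gave 3.94 ± 0.83, Ecm1 3.52 ± 0.40, tenascin C (Tnc) 2.90 ± 0.49 and Mgp, an inhibitor of calcification, 2.89 ± 0.70. Below the threshold were lumican (Lum, 2.29 ± 0.50), fibromodulin (Fmod, 1.89 ± 0.45), versican (Vcan, 1.58 ± 0.44), Smoc1 (1.55 ± 0.46), Sparcl1 (1.37 ± 0.44), Matn2 (1.26 ± 0.55) and Thbs2 (0.49 ± 0.91). Of 13 basement membrane and elastic fibre genes, 4 were in the top 10% and none in the bottom 10%. Emilin1 (2.80 ± 0.31), Nid2 (2.66 ± 0.59), Lamc1 (2.49 ± 0.18) and Nid1 (2.44 ± 0.28) were those 4, none of them in the top 10% of all 6 samples, and 2 to 4 remained there over the other settings. Other Nid1 probes with values in all samples gave -0.40 and -1.36, and those of Lamc1 ran from 2.09 down to -1.74.

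Matrix-degrading enzymes and their inhibitors divided between the ends of the ranking. Of 16 measured, 6 were in the top 10% and 4 in the bottom 10%. Mmp2, a gelatinase, gave 3.91 ± 0.40, from 3.17 through 3.98 to 4.28, and a second probe gave 3.73. Timp2, an inhibitor of these enzymes, gave 3.71 ± 0.32, and its other 3 probes gave 3.10 to 3.66. The lysosomal cathepsin Ctsb gave 4.27 ± 0.30, but its other 2 probes with values gave 0.46 and 0.24, below the median of all genes. Ctsl, a related cathepsin, gave 3.24 ± 0.39 and 2.43 from its second probe. Mmp9, a gelatinase abundant in osteoclasts, gave -1.64 ± 0.54 and Adamts12 -2.24 ± 0.33. Mmp7 and Mmp23 had a value in 1 control sample each.

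Transcription factors known from osteoblast development lay around the middle. Of 15 measured, 1 was in the top 10%, 2 were in the bottom 10%, and the median was 0.60. Id4, an inhibitor of helix-loop-helix factors, gave 3.93 ± 0.82, from 2.83 through 3.89 to 5.19. Its second probe gave -1.67, so that its place rests on 1 probe, and over the other settings 0 to 2 factors of this list stood in the top 10%. Cbfb, the binding partner of Runx factors, gave 2.33 ± 0.28 with a second probe at 1.44. The mesenchymal homeobox factor Prrx1 gave 2.15 ± 0.85, Maf 1.80 ± 0.71 and Mef2c 1.44 ± 0.31. A second Prrx1 probe gave 1.63. Other Mef2c probes gave -0.0007, -0.48 and -1.16, all below the median of all genes. Twist1, which restrains osteoblast maturation, gave 1.12 ± 0.52, from 0.47 through 1.00 to 1.77. Dlx5, a homeobox activator of the osteoblast programme, gave 0.57 ± 0.20, from 0.31 through 0.53 to 0.92. Fosl2 (0.70 ± 0.32), Alx1 (0.60 ± 0.63), Runx1 (0.37 ± 0.31) and Lef1 (0.25 ± 0.64) were near the block median, and Id3 (-0.18 ± 0.57) and Id2 (-0.65 ± 0.60) below it. Foxc2 at -1.06 ± 0.49 and Nfatc1, the leading factor of osteoclast formation, at -1.90 ± 0.58 were in the bottom 10%. Msx2 had values in 5 control samples, Atf4 in 4 and Id1 in none. No probe with exactly 1 symbol in the annotation used carried the name Runx2 or Sp7, so neither could be ranked.

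The mineralisation list had 3 of 8 measured genes in the top 10% and none in the bottom 10%, with a median of -0.24. Those 3 were Mgp and the calcium-binding annexins Anxa2 (4.98 ± 0.17) and Anxa5 (3.30 ± 0.85). Alpl, the alkaline phosphatase that marks osteoblasts, gave -1.01 ± 0.97, from -1.78 through -1.39 to 0.55. Its values were -0.26 and 0.55 on array 1 and between -1.78 and -1.07 on the other arrays. A second Alpl probe gave -1.40. The phosphate carriers Slc20a2 and Slc20a1 gave 0.01 ± 0.26 and -0.49 ± 0.26, Car2, a carbonic anhydrase, -0.56 ± 0.53 and Gpc3, a heparan sulphate proteoglycan, -0.91 ± 0.43.

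Signals and receptors of osteoblasts stood above the middle. Of 31 measured, 9 were in the top 10% and 2 in the bottom 10%, with a median of 1.97. The counts in the top 10% ran from 7 to 11 over the other settings. Igfbp4, which binds insulin-like growth factors, gave 3.96 ± 0.48, from 3.46 through 3.91 to 4.81. Pleiotrophin (Ptn), a heparin-binding factor of bone, gave 3.73 ± 0.78, from 2.72 through 3.93 to 4.55, with a second probe at 3.66. Csf1, the cytokine that supports macrophages and osteoclast precursors, gave 3.29 ± 0.43, and the receptor Fgfr1 gave 3.19 ± 0.47. Of the other 3 Fgfr1 probes, 2 gave 3.15 and 3.14 and the last gave -0.78. Gja1, the gap junction protein connexin 43, gave 3.15 ± 0.31, from 2.76 through 3.13 to 3.62. The antagonists Dkk1 of Wnt and Grem1 of bone morphogenetic protein signalling gave -1.51 ± 0.42 and -1.99 ± 0.79. Pth1r, the receptor for parathyroid hormone, and Bmp4 had no value in any control sample.

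**Figure D2:**
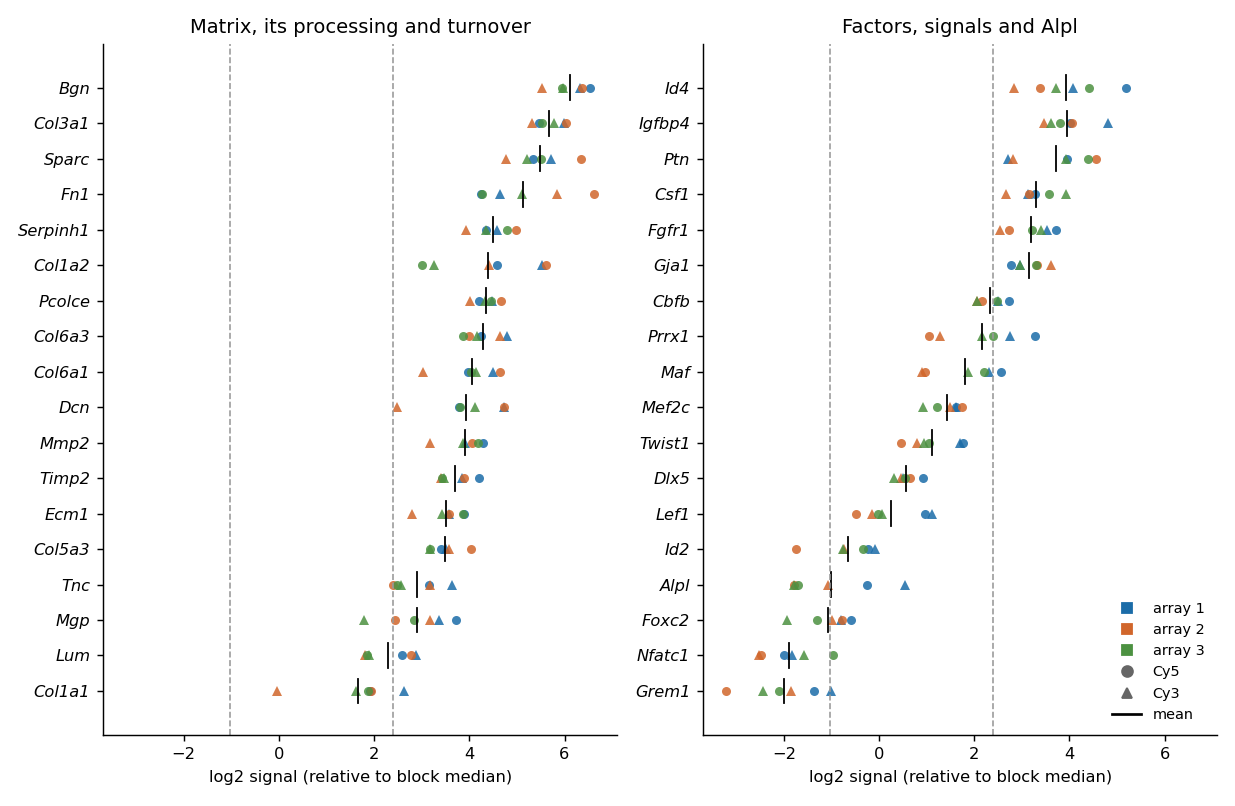
log2 signal (horizontal axis, relative to the block median) of 36 genes in each of the 6 control samples, matrix genes on the left and factors and signals on the right. Colour marks the array, circles Cy5, triangles Cy3 and black bars the mean, and dashed lines mark the top and bottom 10%. Col3a1 stays between 5.31 and 6.02 in all samples, while Alpl lies between -0.26 and 0.55 on array 1 and between -1.78 and -1.07 elsewhere.

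The osteoblast label was set against 18 marker genes. Of these, 11 were on the array under these names, 9 had a value in all 6 samples, 7 of the 9 were above the median of all genes and 4 were in the top 10%. The 4 were Sparc, Serpinh1, Col1a2 and Gja1, which other connective tissue cells also express. Bglap, Ibsp and Spp1, the late bone matrix genes, were among the markers with no probe under their names and could not be ranked. Alpl, at -1.01, lay below the median of all genes, and Dlx5, at 0.57 ± 0.20, differed from it by less than its SD.

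Cytosolic ribosomal proteins had the largest share in the top 10% among the 44 lists with a ranked member. Of 62 cytosolic ribosomal proteins, 50 were in the top 10% (80.6%), 46 of them in every sample, none was in the bottom 10%, and the median was 4.11. Over the other settings 50 to 53 were in the top 10%. Rps4x gave 5.57 ± 0.28, Rpl23 5.29 ± 0.29 and Rps18 5.20 ± 0.38. Of 31 such genes in the top 10% with several probes, 23 had a second probe there as well. Rps4l at 0.70 ± 0.68 and Rps29 at 0.29 ± 1.09 had the lowest means. Ribosomal protein genes have many near-identical copies in the genome, and signal from those cannot be told apart here. Mitochondrial ribosomal proteins, by contrast, had 3 of 52 in the top 10% and 2 in the bottom 10%, with a median of 1.08. The highest was Mrpl38 at 5.70 ± 0.44, whose second probe gave -0.38. Translation factors had 17 of 42 in the top 10%, with a median of 2.10. Eef1a1 gave 5.54 ± 0.58. Of its other probes, 3 gave 4.25 to 5.30 and the last 2 had no value. Eef1g gave 5.18 ± 0.16, with other probes from 1.02 to 3.71. Eef2 gave 4.98 ± 0.15, with other probes of the same accession at 4.65, 3.29 and 0.81.

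Genes of energy supply, secretion and the cytoskeleton followed. The actin list had 24 of 40 genes in the top 10% and a median of 2.67, led by Tmsb10 (5.09 ± 0.32), Actb (5.07 ± 0.44), Myl6 (4.74 ± 0.37) and Myl12b (4.74 ± 0.40). Tubulins and intermediate filaments had 7 of 14, with Tuba1b at 5.29 ± 0.14 and vimentin (Vim), the filament of mesenchymal cells, at 4.34 ± 0.59. Glycolysis had 4 of 11 and a median of 2.30, with Aldoa at 4.20 ± 0.38 and Pkm at 3.87 ± 0.19. Lysosomal genes had 14 of 32 and a median of 2.18, led by the protease Ctsz (4.72 ± 0.45). The secretory pathway had 20 of 55 in the top 10% and 1 in the bottom 10%, led by Tmed3 (4.29 ± 0.73) and Arf1 (3.85 ± 0.19), and its median was 1.92. Oxidative phosphorylation had 18 of 65 (17 to 26 over the other settings) and a median of 1.93, with Ndufa9 at 4.14 ± 0.35 and Cox5b in the bottom 10% at -1.25 ± 1.27. Chaperones had 18 of 60, led by Hsp90b1 (4.87 ± 0.27), and proteasome subunits 13 of 43, led by Psme1 (3.85 ± 0.88).

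Growth and adhesion genes were less uniform. Of 32 cell cycle genes, 3 were in the top 10% and none in the bottom 10%, with a median of 1.22. They were Cdk4 (3.55 ± 0.42), Ccnd2 (3.13 ± 0.67) and Ccna2 (2.79 ± 0.25), a cyclin of dividing cells, and over the other settings 1 to 4 stood there. Pcna, a replication clamp, gave 2.18 ± 0.30. Of 13 integrins only Itgb1, the common beta chain of matrix receptors, was in the top 10%, at 5.31 ± 0.25 with its other 4 probes at 5.21, 3.29, 2.82 and 1.90. The alpha chains Itga3 (1.33 ± 0.22) and Itga11 (1.17 ± 0.49), the latter a collagen receptor chain, were nearer the middle. Of 5 histone genes, H3f3b gave 4.84 ± 0.28, and H2aj and H2az1 were in the bottom 10% at -1.49 ± 0.39 and -2.05 ± 0.88.

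Several other gene families had medians below that of all genes, some of them with single genes far above the rest. Their counts in the bottom 10% depend on the filter. With genes ranked that had values in at least 4 samples, the bottom 10% lay below -1.56. Those counts were then 3 of the same 12 Hox genes, 8 of 123 Zfp genes, 7 of 147 solute carriers, 1 of 20 channel genes and 0 of 11 P450 genes. The filter on all 6 samples gave the counts below. List members that entered only with the looser filter were not counted, so part of the drop is built in. Hoxa2 (-2.44, values in 4 samples) and the channel gene Cacna1d (-2.77, values in 5) were among the members not counted. Of 12 Hox genes, 6 were in the bottom 10% and 1 in the top 10%, and the median was -0.82. That 1 was Hoxa7 at 6.26 ± 0.38. A second Hoxa7 probe had a value in 4 control samples, with a mean of -2.05. The next Hox gene was Hoxc5 at 1.49 ± 0.23. Of 123 zinc finger genes named Zfp, 21 were in the bottom 10% and 5 in the top 10%, with a median of 0.02. The highest, Zfp790, gave 6.34 ± 0.45 while its other probe had values in 3 samples with a mean of -1.86. None of the 5 had a second probe with values in all samples. Solute carriers had 20 of 147 in the bottom 10% and 10 in the top 10%, led by the choline carrier Slc44a1 (5.61 ± 0.44), whose other probes gave 1.27 and 1.05. Ion channel genes had 5 of 20 in the bottom 10% and none in the top 10%, with a median of -0.22. Cytochrome P450 genes had 2 of 11 in the bottom 10% and none in the top 10%. None of 4 chemosensory receptor genes on the array had a value in all samples. Of 7 interleukin and chemokine genes none was in the top 10%.

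Markers of other cell types were mostly absent from the top 10%. None of 7 macrophage and osteoclast markers, 6 endothelial, 3 adipocyte, 4 chondrocyte, 2 smooth muscle, 1 osteocyte, 5 neural, 5 hepatocyte, 5 epithelial, 3 erythroid and 3 lymphoid markers was there. Several defining genes had no value in any control sample: Acp5 of osteoclasts, Tie1 of endothelium, Lep of adipocytes, Sox9 of cartilage, Alb of liver and Ptprc of blood cells. A missing value does not show low expression, since genes that every cell uses, such as Ppia, Pabpc4 and Ndufa6, had none either. Over samples the median of the list ran from 0.66 to 1.43 for macrophage and osteoclast markers, from -0.41 to -0.13 for endothelial, from -1.33 to -0.71 for adipocyte and from -0.23 to 0.62 for chondrocyte markers. Above the median of all genes were 4 of the 7 macrophage and osteoclast markers, whose list median was 1.00 against 0.64. So were 2 of 5 neural and 2 of 5 hepatocyte markers. Endothelial, adipocyte, chondrocyte, erythroid and lymphoid markers had 1 each there, and smooth muscle, osteocyte and epithelial markers none. Among these genes were the macrophage markers Itgam (2.0 ± 0.43) and Tyrobp (1.49 ± 0.40) and the cartilage collagen Col11a1 (2.33 ± 0.92), which osteoblasts also express. Over the other settings at most 1 macrophage and 1 chondrocyte marker reached the top 10%.

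Striated muscle genes were the exception. Of 6 skeletal muscle markers measured, Ttn and Tnnt1 were in the top 10% of all samples, at 5.00 ± 0.99 and 3.79 ± 0.43, and the cardiac troponin Tnnt2, outside the list, had 5.99 ± 0.25. Each of these 3 rests on a single probe with values in all samples. Tnnc2 gave 1.90 ± 0.40, Myh3 0.41 ± 0.47, Tnnc1 0.01 ± 0.89 and Actn3 -0.50 ± 0.21. Ckm, Mb and Pax7 had no value in any control sample, and Mylpf and Actn2 had values in 4. Over samples the median of the list ran from 0.69 to 1.73.

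**Figure D3:**
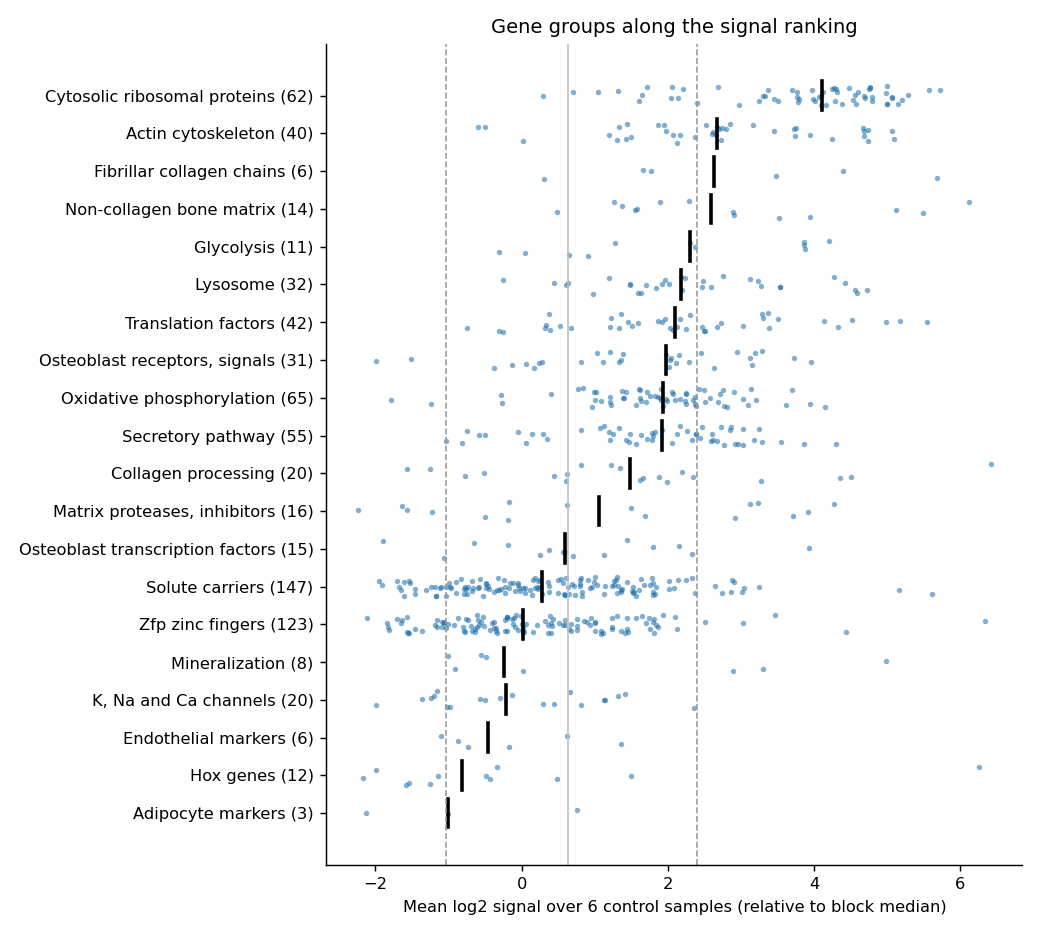
Mean log2 signal over the 6 control samples (horizontal axis, relative to the block median) of each measured member of 20 gene lists, with the number of members in brackets. Black bars mark list medians, dashed lines the top and bottom 10%, and the grey line the median of all 7971 genes (0.64). Ribosomal proteins have a median of 4.11 and Hox genes one of -0.82, with Hoxa7 at 6.26.

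Probes of the same gene often disagreed, which bears on every rank above. Of 797 genes in the top 10%, 506 had several probes with values in all samples, against 3393 of all 7971 ranked genes. Taking the highest probe favours genes with more probes, which bears on the list counts too. The second probe is also lower by that choice. Of these 506 genes, 170 (33.6%) had a second probe above the threshold as well and 90 (17.8%) had every probe there. In 99 (19.6%) the second probe was below the median of all genes. Of the 10 genes with several probes among the first 20, 5 had a second probe above the threshold. Proc, the liver-made anticoagulant protein C, had 5.91 ± 0.48 from its highest probe, -1.91 from a second and no value from the last of 3, and Hmga2 had 1.86 and 1.56 from its other probes. At least 1 other probe also lay far lower for Col6a1 (3.06 and -0.63), Ndufa9 (0.88) and Aldoa (3.89 and -0.42). Over 7630 pairs of probes of a gene with different sequence accessions the median absolute difference was 0.85, with 15.8% of pairs over 2 apart. Over 92 pairs with the same accession, in 59 genes, it was 0.67, with 17.4% over 2 apart. With genes ranked by the mean of their probes instead, 74.2% of the genes in the top 10% were shared with the ranking above.

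**Figure D4:**
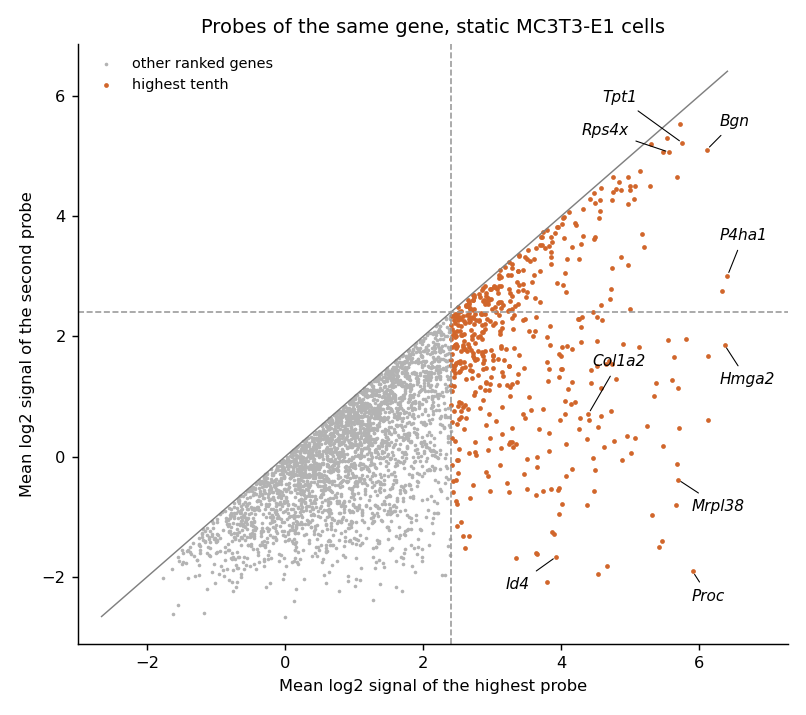
Mean log2 signal of the second probe (vertical axis) against that of the highest probe (horizontal axis) for 3393 ranked genes with several probes measured in all 6 control samples. Orange points are genes in the top 10%, dashed lines its threshold (2.40) and the diagonal equal signal. Bgn, Tpt1 and Rps4x lie near the diagonal, whereas Proc (5.91 and -1.91) and Mrpl38 (5.70 and -0.38) lie far below it.

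The 6 samples differed mainly by array. Over the 7971 genes, Pearson correlations were 0.953 to 0.982 between samples of the same array and 0.880 to 0.905 between arrays, a description in which the points share probes. The median SD of the 3 array means of a gene was 0.32, against 0.17 between samples within arrays after removal of the dye difference. In the fit with limma, 3110 genes (39.0%) differed among the 3 arrays at an adjusted p under 0.05 (F test, dye as a term, Benjamini-Hochberg adjustment). Samples taken to share an array are the Cy5 and Cy3 signals of the same spots. The test thus sets differences among arrays against differences within spots, for every gene named below as well. Differences of spots, hybridisation and culture cannot be told apart in it. The array means of 1555 genes (19.5%) spanned more than 1 on the log2 scale and those of 213 genes more than 2. In the top 10%, 284 genes (35.6%) differed and in the bottom 10%, 366 (45.9%). The count of array differences depends on the samples: it was 1171 without control 1, 1156 without control 2, 5539 without control 3, 4802 without control 4, 1609 without control 5 and 1483 without control 6. Without a whole array it was 1345 (array 1), 3399 (array 2) or 1761 (array 3).

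Array 2, which had the fewest values, was the lowest array for 1957 of the 3110 genes (62.9%) and the highest for 348 (11.2%). Each sample is set to the block median of its own measured spots, and over the ranked genes the sample medians were 0.80, 0.72, 0.59, 0.31, 0.76 and 0.61 for controls 1 to 6. With quantile normalization, which gives all samples the same distribution, 2485 genes differed, and array 2 was lowest for 31.8% and highest for 35.3% of them. The predominance of array 2 among the lowest values was thus not seen under that scaling, and 2011 genes were called in both fits. Scaled instead to 1 median per sample, 3769 genes differed, and array 2 was lowest for 61.4% and highest for 9.8% of them.

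The largest differences were of single genes on single arrays. Slc16a13, a monocarboxylate carrier relative, gave 6.49 and 6.94 on array 2 and between -1.72 and -1.04 on the others (limma F test, adjusted p = 3.3e-05). Dph3 and Apbb2 were likewise highest on array 2, at 6.05 and 7.63 and at 6.13 and 5.04. Efhd2 (4.28 and 4.46) and Prkx (3.33 and 3.37) were high on array 1 and below 0 on the others. Cox6c gave -3.22 and -0.78 on array 2 and from 1.92 to 3.23 elsewhere. In each of these 6 genes the values of that array did not overlap with those of the others. The genes were picked for their large range of array means, so this follows largely from the choice. How many of all genes had such an array was not counted, and 39.0% of all genes passed the test. The SD of such a gene is a difference between arrays and not a spread among 6 samples.

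Among the matrix and osteoblast genes, several passed the same test. Fn1 was higher on array 2 (6.62 and 5.84) than on arrays 1 and 3 (4.25 to 5.10), with adjusted p = 0.021. Col1a2 was lower on array 3 (3.01 and 3.25) than on the others (4.40 to 5.60), with adjusted p = 0.028. Alpl had adjusted p = 0.0066, Id4 0.0072, Prrx1 0.0058, Maf 0.0042, Lef1 0.0056, Twist1 0.014, Fgfr1 0.017 and Anxa5 0.0046. Bgn (0.185), Col3a1 (0.97), Sparc (0.88), Serpinh1 (0.93), Pcolce (0.97), Dcn (0.70), Mmp2 (0.14), Gja1 (0.11) and Dlx5 (0.34) missed the threshold, which does not show that they were equal. Of the genes used as references, Gapdh had 2.36 ± 0.63 and passed (0.021), as did Actb (0.026), while B2m (4.03 ± 0.35), Ywhaz (3.31 ± 0.21), Hprt (1.30 ± 0.36) and Tbp (0.61 ± 0.19) did not. Hspa8, a constitutive chaperone, gave 2.60 and 2.65 on array 1 and from 5.26 to 5.56 on the others. Rpl9 gave 1.43 and 0.53 on array 2 and from 4.86 to 5.98 on the others, and a second Rpl9 probe, with values in 4 samples, had a mean of 3.79.

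**Figure D5:**
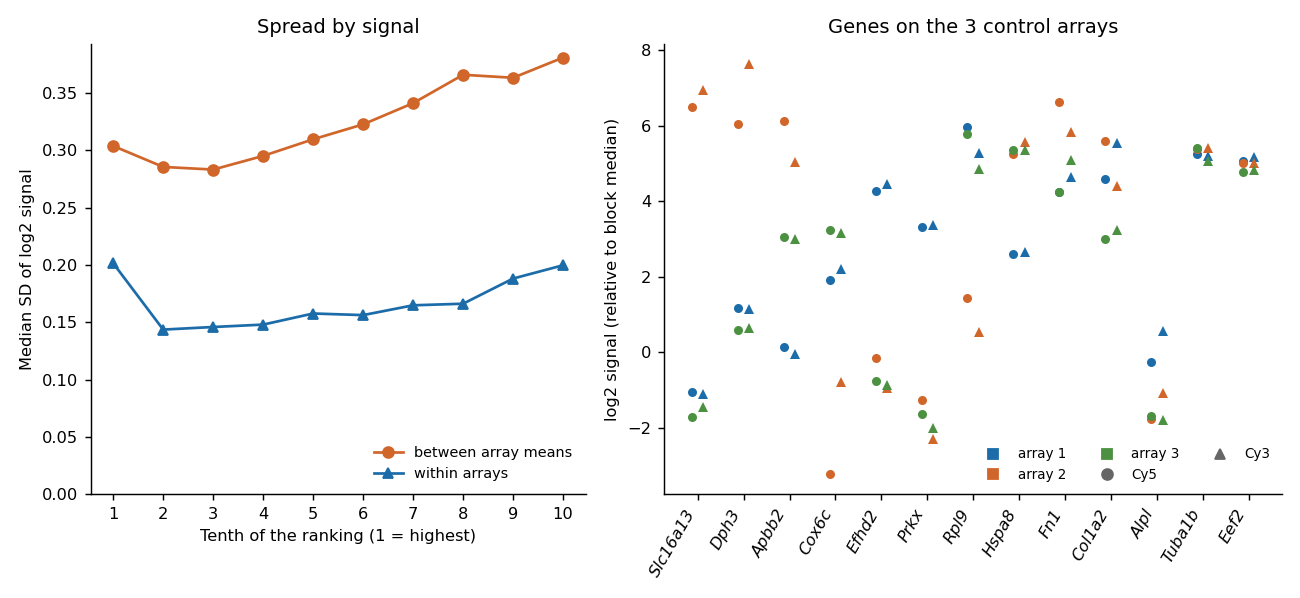
Left, median SD of log2 signal between array means and within arrays (vertical axis) by 10% step of the ranking (horizontal axis, 1 = highest). Right, log2 signal (vertical axis) of 13 genes in each control sample, coloured by array, with circles for Cy5 and triangles for Cy3. Slc16a13 lies above 6 on array 2 and below -1 on the others, while Tuba1b stays between 5.06 and 5.41 in all 6 samples.

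No gene differed between the dyes in the same fit at an adjusted p under 0.05 (0.00%), and 1235 of the 7971 genes had an unadjusted p under 0.05. The count of dye differences was 86 without control 3, without control 4 or without both. The median difference of Cy5 minus Cy3 was 0.18 over all genes and 0.01 after quantile normalization. Absolute differences exceeded 1 for 23 genes. Among those with the smallest p values were Cdhr5 and Nolc1, which were lower in Cy5 on all 3 arrays, and Rpl9 and Ifitm1, which were higher in Cy5 on all 3 arrays. Genes were picked here for small p values, so the shared direction follows largely from the choice. None of them passed the adjusted threshold.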

How the data were processed

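cDNA labelled with Cy5 or Cy3 was hybridised to spotted arrays, and the 6 static control samples were used here. The deposited values are log2 ratios of a spot's net fluorescence to the median of its block, as the values show: in 288 of 288 combinations of block and control sample they gave whole-number fluorescence within 0.002. How the authors scanned, gridded and background-corrected the arrays was not given in the sources used here. Probes were named through the platform annotation (18511 with 1 symbol, 937 with several, 9256 with none), and 18267 symbols were updated by Entrez number. No background correction or scaling was added. Genes were ranked on the mean of 6 log2 values. Differences among arrays (F test) and between dyes were tested with limma 3.58.1 in R 4.3.3, with array and dye as terms over the 7971 genes and Benjamini-Hochberg adjustment, at a threshold of 0.05. The fit had 2 residual and 4.44 prior degrees of freedom. Array membership was inferred from the dyes and the hybridisation design. Only 6 samples on 3 arrays limit the precision.

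The same fit was tested on simulated data of 7971 genes. It recovered 8% of array differences of size 1 and 58% of those of size 2 on the log2 scale. For dye differences of those sizes it recovered 53% and 87%. For array differences, 68 genes were called in the simulated data, against 3110 in the real data. The Benjamini-Hochberg adjustment is stricter where fewer genes differ, so the array shares do not apply to the real fit. Genes called for array differences in the real fit had a median range of array means of 0.97. For dye differences the calls were 144 in the simulated data and 0 in the real data, so those shares may not apply either.

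The members, the 45 gene lists and the tests were chosen with earlier results of these data known. Named genes are the 20 highest and 10 lowest means, all members of the fibrillar collagen, bone matrix, transcription factor and mineralisation lists and the references, up to 4 highest and 2 lowest members of each other list, the 6 called genes with the largest range of array means, and the 4 highest and 4 lowest dye differences with the smallest p. After the annotation was seen, names that a family pattern had caught wrongly were taken out: H13 and H19 (histones), Tubgcp genes (tubulins), Ifnar genes (interleukins), Eef2k (translation factors) and Sec1 (secretory pathway). The osteoblast markers were added as a list. The alternatives were other rules for probes, filters, scalings and samples. Promoter sequences came from RefSeq (GRCm38.p6), with 250 bases before and 50 from each start. Ranking and plots used pandas 2.3.3, matplotlib 3.10.9 and numpy 2.4.6 under Python 3.11.15.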

Additional observations from a re-analysis of the deposited data

Results flagged for a closer look

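In 11 of 327 groups of 6 values tested (3.36%), 1 control sample stood apart from the other five by Dixon's criterion, which chance meets in about 1 of 20 groups. Control 4 was the sample in 8 of them. It was low for the median of the matrix proteases and inhibitors (0.255), the median of the Zfp zinc finger genes (-0.33), Utp20 (4.70), Col1a1 (-0.037), Mmp2 (3.17), Slc27a5 (-2.67), a bile acid ligase, and Smtn (-0.68), a smooth muscle protein. It was high for Col4a2 (1.59). Control 4 also had the fewest values and the lowest median of ranked genes (0.31), whose part in these results was not tested. Control 5 was high for the median of the osteoblast receptors and signals (2.08). Control 3 was low for A730056A06Rik (-4.25), and control 6 for Cd63 (4.09), a protein of lysosomal membranes.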

How the results depend on the processing

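The share of the top 10% shared with another setting was 82.2% with the median probe, 74.2% with the mean of the probes, 92.2% with 1 median per sample, 99.6% with quantile normalization and 95.6% with the median over samples. For the bottom 10% these shares were 96.6%, 92.3%, 87.2%, 99.6% and 92.6%, and 31.4% where values in 4 samples sufficed (9058 genes). Leaving out single replicates gave 96.7 to 97.7% (top) and 94.4 to 96.7% (bottom), and leaving out arrays 1, 2 and 3 gave 93.7%, 93.5% and 92.8% (top) and 89.5%, 89.7% and 91.5% (bottom). The count of array differences was 1344 with genes above the median only and 1156 to 5539 without single replicates. Without array 1 it was 1345 and without array 3 1761. The count of dye differences was 86 without array 2, and leaving out control 3 or control 4 alone is the same fit. It ranged from 0 to 86 without single replicates. Why the count changed without array 2 was not tested. Of 281 named genes, means moved by more than the SD between samples in 70 with the mean of the probes, 33 with the median probe, 20 with 1 median per sample and 2 with values in 4 samples. Of 44 list medians, 17 moved with the mean of the probes (receptors and signals to 0.98, basement membrane to 0.49, all genes to 0.32), 5 with the median probe and 5 with 1 median per sample. No paired analysis was possible because only 1 group was used, so no replicate numbers pair groups. The dye comparison was made within arrays. Values have no depth in reads, and array signal close to background limits the bottom of the ranking.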
